A study of Homo sapiens with 24 samples.

Results

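Germinal center lymphomas often carry mutations in genes that write, erase or move chromatin marks, and 2 such genes, CREBBP and KMT2D, were edited in this study. A set of 10 of these genes, CREBBP, EP300, KMT2D, KMT2C, EZH2, ARID1A, ARID1B, TET2, SMARCA4 and SETD2, were followed in the list of super-enhancers (SEs) of the unedited cells. A region was assigned to a gene when it overlapped the annotated gene body (GENCODE v44, hg38) extended by 50 kb on each side. By this rule 16 of the 2615 SEs lay at 9 of the 10 genes, and TET2 had none.

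The cells were OCI-Ly7, an established human GCB-DLBCL line (diffuse large B-cell lymphoma resembling germinal center B cells). CUT&RUN uses an antibody to bring a nuclease to a histone mark, and the DNA cut free is sequenced. The 3 marks H3K27ac, H3K4me1 and H3K4me3 were profiled in 4 genotypes with 2 samples each, which gave 24 samples in 12 groups. The genotypes were WT (CRISPR control clones without an edit), C (homozygous knock-in of CREBBP R1446C), K (homozygous KMT2D knockout) and CK (both lesions). The clones were grown from single cells, so effects of a clone and of its genotype cannot be told apart. The table used here has 1 signal column, in which the authors pooled the 2 H3K27ac WT samples. The other 22 samples have no value in it, so every value below describes WT cells, has no replicate error, and allows no test of C, K or CK. The number of reads behind a signal is not given, so no counting interval could be set. In such bulk samples, fewer cells with a mark and less of the mark per cell cannot be told apart.

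H3K27ac is deposited on active enhancers and promoters largely by the acetyltransferases CREBBP and EP300, at enhancers that KMT2D and KMT2C prime by methylating H3K4. EZH2, the catalytic subunit of the polycomb complex PRC2, methylates H3K27 and so occupies the same residue. ARID1A, ARID1B and SMARCA4 belong to the SWI/SNF complexes, which slide or evict nucleosomes. TET2 oxidises methylated cytosine, and SETD2 trimethylates H3K36 along transcribed genes. SEs are dense groups of enhancers with far more signal than a typical enhancer. The ROSE tool stitched H3K27ac peaks lying close together into 1 region and ranked regions by the signal of the whole stretch, with rank 1 the highest. Peaks near transcription start sites (TSSs) were set aside before joining, so a region that spans a promoter was built from peaks on either side of it.

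Both edited sites lay inside SEs of the WT cells. They are shown to place the 2 lesions among the regions described here. Constituent peaks made up 14.3% of the region at the CREBBP site and 9.56% of that at the KMT2D site. Whether either site lay on a peak is not known. The targets of the 2 guides are given with the protospacer in lower case and the PAM, the motif Cas9 needs beside its target, in capitals. Each matched the hg38 sequence at 1 place with this PAM.

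CREBBP guide target, chr16:3738599-3738621, plus strand: catggtaaacggctgtgcggAGG
KMT2D guide target, chr12:49054722-49054744, plus strand: cagagagcacaacgccgcacCGG

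The CREBBP target lay in exon 26 of 31, 142 kb from the TSS, within the SE of rank 101. The KMT2D target lay in exon 4 of 55, 6.06 kb from the TSS, within the SE of rank 1238. The repair template for CREBBP was 100 bases long and matched the minus strand of the genome at 98 of them. Its middle stretch is shown against the reference, with the 2 changed bases in capitals.

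CREBBP reference, chr16:3738604-3738634, minus strand: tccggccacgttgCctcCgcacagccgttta
CREBBP repair template, the same stretch: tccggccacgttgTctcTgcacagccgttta

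Counted from 1 at the template's 5′ end, the changes were C49T and C53T, with the genome's base first. C53T turned codon 1446 from CGC to TGC, which is the R1446C change of the label, and fell in the protospacer. C49T turned codon 1444 from TGC to TGT, which leaves the amino acid as it was (C1444C), and fell in the PAM.

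The TSSs of 3 genes, CREBBP, KMT2D and ARID1B, lay within an SE. Their promoters are shown beside that of TET2, the gene with no SE nearby, as the 250 bases before the RefSeq start (GRCh38.p14), which was the same base as the GENCODE canonical TSS in all 10 genes. Capitals mark GGGCGG on either strand, the core of the GC box bound by SP and KLF factors, with overlapping matches run together.

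CREBBP promoter, chr16:3880714-3880963, minus strand: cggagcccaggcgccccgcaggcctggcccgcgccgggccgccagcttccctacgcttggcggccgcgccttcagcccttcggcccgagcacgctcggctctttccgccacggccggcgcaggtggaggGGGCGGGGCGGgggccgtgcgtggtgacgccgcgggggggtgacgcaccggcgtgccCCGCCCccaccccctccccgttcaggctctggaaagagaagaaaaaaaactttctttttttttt
KMT2D promoter, chr12:49060795-49061044, minus strand: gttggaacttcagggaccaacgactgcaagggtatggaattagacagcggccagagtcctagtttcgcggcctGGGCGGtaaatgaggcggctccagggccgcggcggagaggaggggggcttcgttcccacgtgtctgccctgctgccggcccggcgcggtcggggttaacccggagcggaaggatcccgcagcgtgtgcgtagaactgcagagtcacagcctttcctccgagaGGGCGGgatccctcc
ARID1B promoter, chr6:156777128-156777377, plus strand: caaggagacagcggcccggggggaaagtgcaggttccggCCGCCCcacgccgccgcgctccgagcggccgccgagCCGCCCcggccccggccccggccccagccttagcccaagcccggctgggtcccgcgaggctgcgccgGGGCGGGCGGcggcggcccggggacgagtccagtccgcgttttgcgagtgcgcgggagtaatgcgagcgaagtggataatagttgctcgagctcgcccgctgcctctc
TET2 promoter, chr4:105146626-105146875, plus strand: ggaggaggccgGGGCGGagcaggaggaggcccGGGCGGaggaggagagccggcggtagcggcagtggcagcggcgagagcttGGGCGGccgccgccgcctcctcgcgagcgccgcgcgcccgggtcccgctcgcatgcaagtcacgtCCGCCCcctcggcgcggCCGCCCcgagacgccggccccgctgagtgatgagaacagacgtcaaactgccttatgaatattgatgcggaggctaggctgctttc

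The 4 promoters were alike in base composition, and the one without an SE did not stand outside the others. GC content was 72.4% for CREBBP, 65.6% for KMT2D, 76.0% for ARID1B and 72.8% for TET2, and the number of CpGs was 31, 23, 37 and 34, respectively. Over all 10 genes GC content ran from 65.6% for KMT2D to 92.0% for KMT2C, against a median of 58.4% over 34961 promoters of the same length. GGGCGG was found in 9 of the 10 promoters (EP300 had no match) and in 42.7% of all promoters. These are descriptions of sequence and say nothing about which factors bind.

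An SE at the gene was more common among the 10 genes than among protein-coding genes in general. A region within 50 kb was found for 9 of 10, where 30.7% of 19970 protein-coding genes had one. A region over the gene body itself was found for 8 of 10, against 17.3%. The canonical TSS lay in a region for 3 of 10, against 7.77%, and 5 of 10 genes had 2 or more regions, against 7.34%. The share with a region within 50 kb differed with gene length (all genes cut into 10 length classes of equal size). It rose from 19% in the shortest class to 37.6% in class 9, but was 28.5% in the longest. In the class of each gene the share was 35.4% for KMT2D and 36.2% for EP300, EZH2 and ARID1A. It was 37.6% for CREBBP, TET2, SMARCA4 and SETD2, and 28.5% for KMT2C and ARID1B, the longest class. The shares are descriptions, and no test was made over so small and chosen a list.

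**Figure D1:**
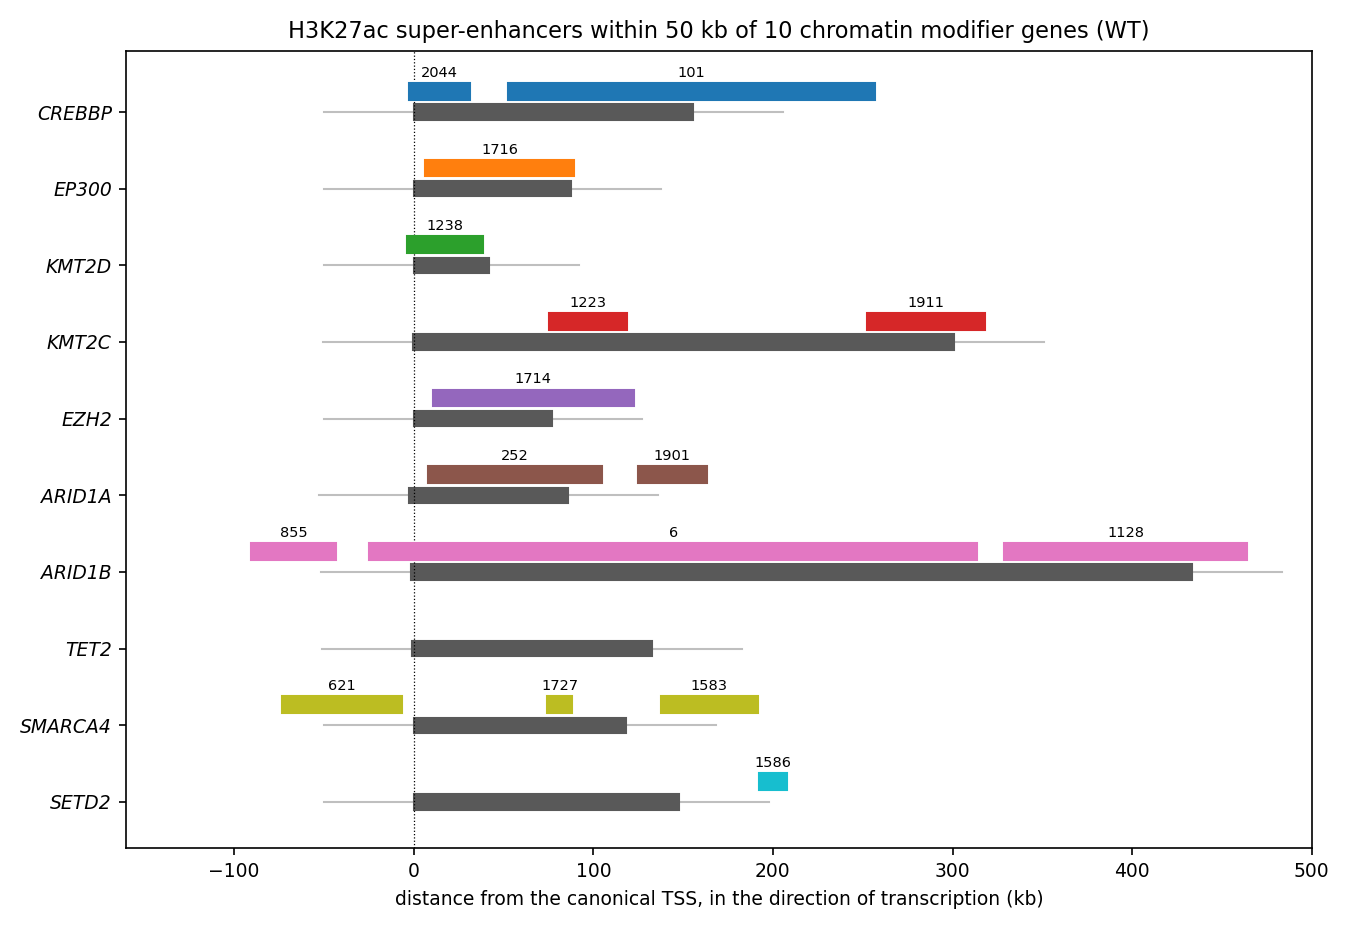
Map of the 10 genes (dark bars, gene body) with the SEs assigned to each (coloured bars, labelled with their rank) against distance from the canonical TSS in kb, drawn in the direction of transcription; thin lines show the 50 kb extension. The regions of CREBBP, EP300, KMT2D, EZH2, ARID1A and ARID1B run along most of the gene, those of KMT2C and SMARCA4 along a small part, SETD2 has 1 region beyond its 3′ end and TET2 has none.

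The 16 regions were spread over the ranking. Their ranks ran from 6 to 2044 with a median of 1410.5, where the middle of the table is 1308, and 8 of the 16 stood above that middle. Their signal ran from 13617 to 135630 and their median, 18721, was a little below that of the whole table, 19736. It was 1.28 to 12.8 times the cutoff for calling an SE. The 3 regions among the 262 highest were those of ARID1B (rank 6), CREBBP (rank 101) and ARID1A (rank 252). The signal is in the arbitrary units of the table and compares regions only within it.

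CREBBP, the acetyltransferase edited in C and CK, carried 2 SEs that together covered 86.3% of its 155.66 kb body on the minus strand of chr16. The larger, chr16:3624015-3828089, ranked 101 with a signal of 66875 over 204 kb and 70 constituent peaks. It took in exons 3 to 31, and 50.5% of it lay in CREBBP. The rest ran past the 3′ end over TRAP1, a mitochondrial chaperone gene, and DNASE1, a secreted nuclease gene. The TSSs of both neighbours lay inside it, and TRAP1 had the TSS nearest to its middle. The smaller, chr16:3849461-3883334, ranked 2044 with a signal of 13617 over 33.9 kb and 12 constituents, and held the TSS with exons 1 and 2. A stretch of 21.4 kb without a constituent, inside the gene, separated them. Per base the order was the other way round, at 0.402 for the region with the TSS and 0.328 for the larger one.

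EP300, the paralog of CREBBP, carried 1 SE, chr22:41098989-41181706, which ranked 1716 with a signal of 15824 over 82.7 kb and 27 constituents. It began 6.40 kb downstream of the TSS, held exons 2 to 31 of 31 and covered 92.7% of the gene, and it overlapped no other protein-coding gene. Its signal per base was 0.191, which put it at place 2370 of 2615 by that measure. Both acetyltransferase genes were spanned by SEs along most of their length, with a summed signal of 80492 at CREBBP and 15824 at EP300. The 2 sums are not alike, since each counts whole regions. Of the CREBBP region of rank 101, 50.5% lay in CREBBP, and of the EP300 region 98.0% lay in EP300.

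KMT2D, the H3K4 methyltransferase knocked out in K and CK, carried 1 SE, chr12:49022324-49064265, which ranked 1238 with a signal of 20455 over 41.9 kb. It had 10 constituents, held the TSS and exons 1 to 53 of 55, and covered 92.0% of the gene. KMT2D is compact and rich in exons, and 53.0% of this region was exonic and 38.8% intronic, whereas introns made up more than exons in the other regions that overlapped 1 of the 10 genes except the 3′ region of KMT2C. An annotated gene without a symbol (ENSG00000288710) shares part of the stretch. KMT2D lay in the most crowded surroundings of the 10, with 8 other protein-coding genes in its window, yet its own TSS was the one nearest to the middle of the region.

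KMT2C, its paralog, carried 2 SEs that covered 30.5% of its 301.7 kb body. One, chr7:152317504-152360795, ranked 1223 with a signal of 20555 over 43.3 kb and 13 constituents. It lay wholly inside the gene, 75.2 kb from the TSS, around exons 2 and 3, and 98.3% of it was intronic. The other, chr7:152117816-152183800, ranked 1911 with a signal of 14319 over 66.0 kb and 20 constituents. It held exons 35 to 59 and ran past the 3′ end into GALNT11, a glycosyltransferase gene. The 134 kb between them held no SE. The 2 regions differed in signal per base, at 0.475 and 0.217. The first was close to the KMT2D region in rank, signal (20555 and 20455), length and signal per base (0.475 and 0.488), but did not reach its gene's promoter.

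EZH2 carried 1 SE, chr7:148761894-148873440, which ranked 1714 with a signal of 15840 over 112 kb and 29 constituents. It held exons 2 to 20 of 20, covered 85.9% of the gene, ended 10.9 kb short of the TSS and ran past the 3′ end into CUL1, a cullin of the SCF ubiquitin ligase. Its signal per base, 0.142, was the lowest of the 16 and stood at place 2595 of 2615. Its total came close to that of EP300 (15824) over a longer stretch.

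Of the SWI/SNF genes, ARID1B held the highest signal of the 10 genes. Its main SE, chr6:156752660-157091058, ranked 6 with a signal of 135630 over 338 kb and 97 constituents, and held the TSS and exons 1 to 5 of 20. A second region, chr6:157106167-157241313, began 15.1 kb further on and took in exons 6 to 20, ranking 1128 with a signal of 21948 over 135 kb. The most distant, chr6:156686964-156734072, lay 18.6 kb upstream of the main one over no protein-coding gene, and ranked 855 with a signal of 26475 over 47.1 kb. The signal per base fell along the gene, from 0.562 upstream to 0.401 in the main region and 0.162 in the last. The body was covered to 96.5%, and the window of ARID1B held no other protein-coding gene.

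ARID1A, its paralog and alternative subunit in the same complex, carried an SE, chr1:26703861-26800592, of rank 252 with a signal of 47940 over 96.7 kb and 33 constituents. It began 7.85 kb downstream of the TSS, held exons 2 to 20 of 20 and covered 88.0% of the gene. It also held the TSS of PIGV, an enzyme of GPI anchor synthesis, which was the TSS nearest to its middle. A second region, chr1:26820753-26859253, lay over ZDHHC18, a palmitoyltransferase gene, 38.6 kb from the body of ARID1A, and ranked 1901 with a signal of 14403.

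SMARCA4, the ATPase of the complex, had 3 SEs nearby, of which 1 lay in the gene. That region, chr19:11035521-11049344, was the shortest of the 16 at 13.8 kb, with 3 constituents around exon 30 of 35, and covered 11.7% of the body. It ranked 1727 with a signal of 15739, but its signal per base, 1.14, was the highest of the 16 and stood at place 106 of 2615. The SE of rank 621, chr19:10887974-10954286, ended 6.65 kb before the gene and lay over CARM1, an arginine methyltransferase, with YIPF2 and TIMM29; its signal was 31439. The SE of rank 1583 lay past the 3′ end of the gene, with a signal of 16987 over 54.3 kb and 22 constituents. None of the 3 had SMARCA4 as the gene with the nearest TSS.

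TET2 stood apart. No SE lay within 50 kb or 100 kb of its body (chr4:105145875-105279816), and the nearest was 2.27 Mb away, a region of rank 2435 with a signal of 11420 over UBE2D3 and CISD2. On the other side the nearest was 2.71 Mb away, a region of rank 98 with a signal of 67267 over HADH and LEF1. The stretch between the 2 measured 5.12 Mb and held 19 protein-coding genes. Of 2592 such stretches between neighbouring regions on a chromosome 139 were longer, and their median was 216 kb. Of all protein-coding genes 8.92% lay at least as far from a region as TET2. Its paralogs TET3 and TET1, named after their values were seen, each had a region within 50 kb. That of TET3 overlapped the gene and ranked 1532 with a signal of 17558. That of TET1 lay 32.1 kb from the gene over CCAR1 and ranked 2171 with a signal of 12877. The table lists SEs above a cutoff, so H3K27ac below the cutoff at TET2 cannot be seen in it.

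SETD2 had 1 SE at the edge of its window, chr3:46956078-46971631, which lay over CCDC12, a splicing factor gene, 44.8 kb past the 3′ end and 192 kb from the TSS. It ranked 1586 with a signal of 16982 over 15.6 kb and 4 constituents. Its signal per base was 1.09, second among the 16 after the region inside SMARCA4. No region touched SETD2 itself.

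**Figure D2:**
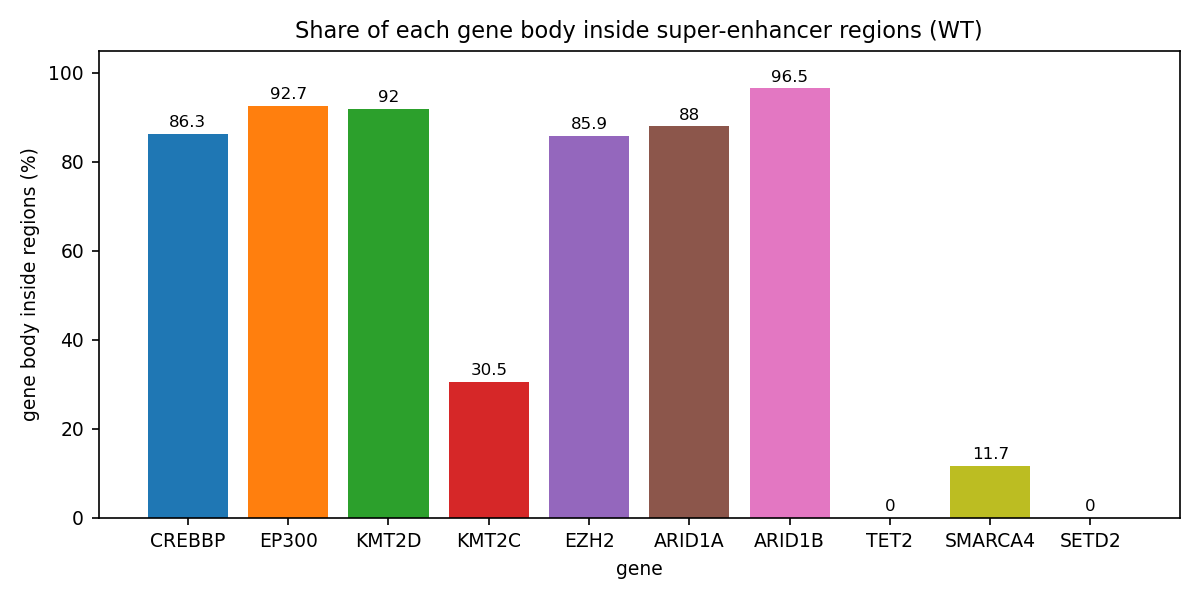
Share of each gene body that lay inside SEs, in percent, 1 bar per gene. There are 6 genes between 85.9% and 96.5%, KMT2C at 30.5%, SMARCA4 at 11.7%, and TET2 and SETD2 at 0.

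Coverage of the body separated the genes into those spanned by SEs and those that were not. The 6 genes CREBBP, EP300, KMT2D, EZH2, ARID1A and ARID1B, had 85.9% to 96.5% of the body inside regions, and the other 4 had at most 30.5%. At least 50% of the body lay in regions for 11.6% of all protein-coding genes, and for 14.6% of the 7745 genes at least as long as KMT2D, the shortest of the 10. Among the 1959 of those long genes that a region touched, 57.6% were covered to this extent, as were 6 of the 8 touched here. Of 436 genes at least as long as ARID1B, 13 reached it. The limit of 50% was set after the values were seen. Covered means lying between the outer peaks of a region: the constituents themselves made up 8.33% to 18.4% of the length of the 16 regions.

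For EP300, EZH2 and ARID1A the region held each exon but the first of the canonical transcript, with its near edge 6.40, 10.9 and 7.85 kb downstream of the canonical TSS. For CREBBP, KMT2D and ARID1B the region with the TSS began upstream of it. Peaks around TSSs were set aside before stitching, and the part of that step in where such edges fall was not tested.

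**Figure D3:**
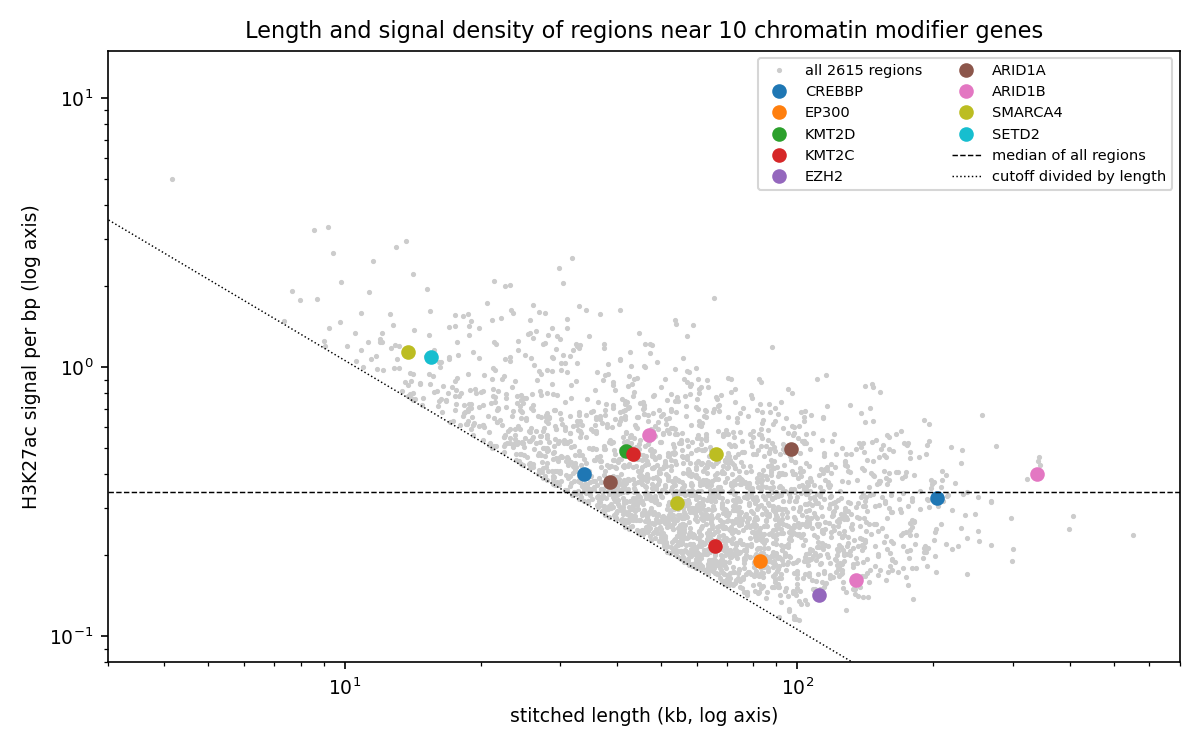
Signal per base against stitched length in kb, both on log axes, for all 2615 regions (grey) and the 16 regions near the 10 genes (coloured by gene). The dashed line is the median of all regions, 0.343, and the dotted line is the cutoff divided by length, below which a region could not be listed; the short regions of SMARCA4 and SETD2 stand highest and the long region of EZH2 lowest.

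Regions of like rank were built in different ways. The SEs of EZH2 (rank 1714), EP300 (rank 1716) and SMARCA4 (rank 1727) had signals of 15840, 15824 and 15739, but lengths of 112, 82.7 and 13.8 kb and a signal per base of 0.142, 0.191 and 1.14. Over the 16 regions length ran from 13.8 to 338 kb with a median of 60.2 kb, against 60.7 kb over all regions. The signal per base had a median of 0.401 against 0.343 (quartiles 0.246 and 0.511), and 10 of the 16 stood above the median. The number of constituents had a median of 18.5 against 16. Since a fixed cutoff sets what is listed, a short region can be listed only if its signal per base is high.

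The gene of the set had the nearest TSS for 7 of the 16 regions. For the others it was a neighbour such as TRAP1, PIGV, YIPF2 or CCDC12. No such share was computed for genes in general, so 7 of 16 cannot be called high or low. A protein-coding TSS lay inside 7 of the 16, against 44.9% of all regions. Distance alone links a region to a gene here, so a region may act on a neighbour or on none.

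Sequence was examined at the edges of the regions, where the position of a constituent is known from the table. The 32 outermost constituents of the 16 regions had a median GC content of 49.9%, against 49.4% for the 5229 outermost constituents of all regions. TGANTCA, the AP-1 motif read alike on both strands, was found in 6 of the 32 (18.8%) and in 11.6% of all. CAGGTG or its reverse CACCTG, an E-box of the kind bound by E proteins in B cells, was found in 18 of 32 (56.2%) and in 42.5% of all. Neither the octamer ATGCAAAT (2.43% of all) nor GAGGAAGT, a form of the PU.1 and ETS site (3.35% of all), was found in the 32. The highest number of matches to TGANTCA was 2, found in 3 of the 32. One of these 3 was the left edge of the SMARCA4 region of rank 1727, the region with the highest signal per base, and lies in an intron. Its middle 300 bases are shown, with the match that falls in them in capitals.

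SMARCA4 intronic constituent, chr19:11035571-11035870, plus strand: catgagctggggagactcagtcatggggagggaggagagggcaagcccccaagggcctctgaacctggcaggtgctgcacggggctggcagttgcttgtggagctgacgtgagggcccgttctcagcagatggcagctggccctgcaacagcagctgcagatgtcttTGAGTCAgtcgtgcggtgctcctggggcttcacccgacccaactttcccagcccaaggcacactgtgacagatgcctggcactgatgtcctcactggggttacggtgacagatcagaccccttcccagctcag

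A match is a run of letters and not a site shown to be bound. Over whole regions the median GC content was 46.2% for the 16 and 45.7% for all.

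**Figure D4:**
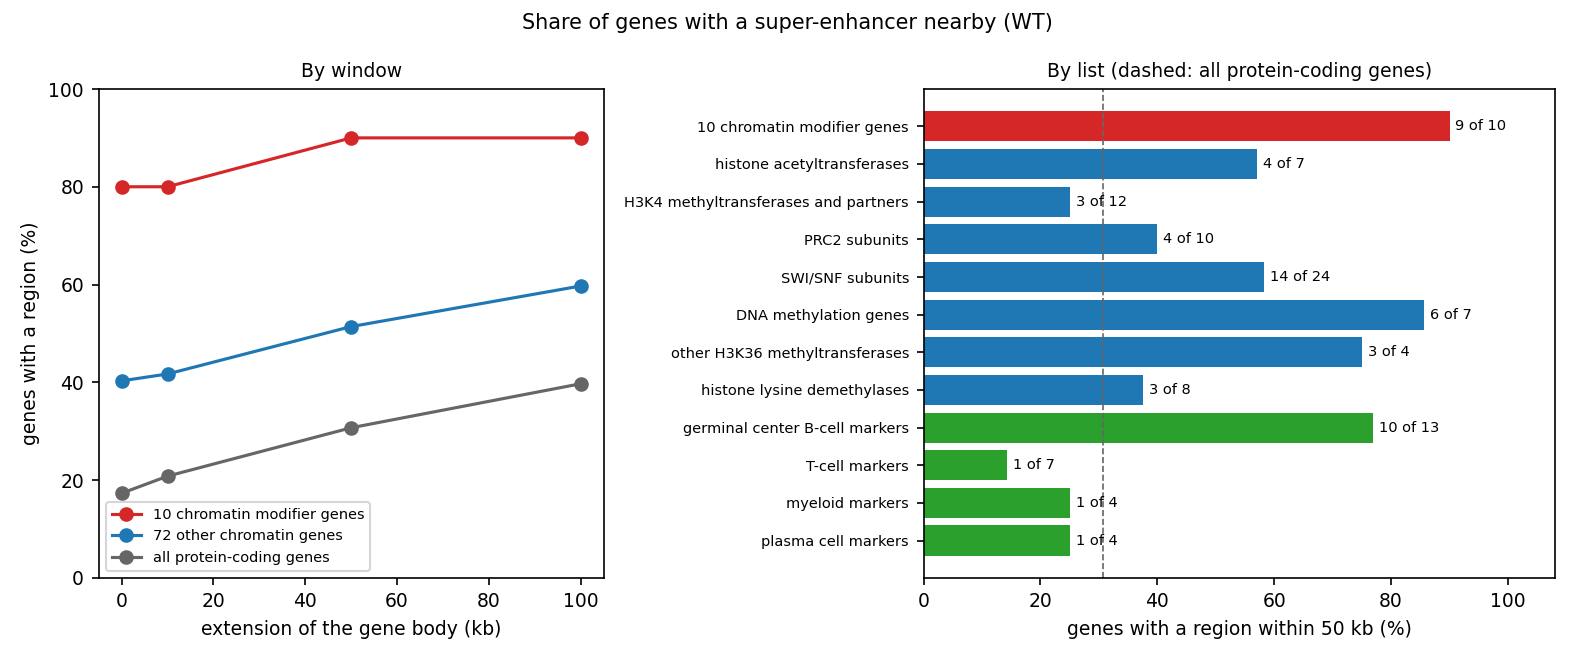
Left, percent of genes with an SE within 0, 10, 50 and 100 kb of the gene body for the 10 genes, 72 other chromatin genes and all protein-coding genes. Right, percent with an SE within 50 kb for each list, with counts; the dashed line is all protein-coding genes, 30.7%, and DNA methylation genes (6 of 7) come nearest to the 10 genes (9 of 10).

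Other genes of the same pathways were read in the same way. Of 72 further chromatin genes in 7 lists 37 (51.4%) had a region within 50 kb, between the 10 genes and the 30.7% of all protein-coding genes. Among 7 further acetyltransferases 4 (57.1%) had one. KAT7 stood at rank 606 with a signal of 31714 and KAT2A at rank 1061 with 22986. KAT6B stood at rank 1933 with 14169 and KAT8 at rank 2524 with 11028. The KAT7 region lay 47.4 kb from the gene, over SLC35B1 and FAM117A. The KAT8 region lay 46.5 kb away over STX4 and ZNF668, and that of KAT2A 3.71 kb away. Only the KAT6B region overlapped its gene. Among 12 H3K4 methyltransferases and their partners 3 had one. SETD1B stood at rank 569 with a signal of 32988, SETD1A at rank 2524 and NCOA6 at rank 2545 with 10937. The region of SETD1A was the one also counted for KAT8 and lay 38.3 kb from SETD1A. The region of rank 569 overlapped TMEM120B and RHOF but not SETD1B, and another region of lower signal overlapped SETD1B itself. This list was the one chromatin list of the 7 below the share of all genes, at 25%.

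Among 10 PRC2 subunits besides EZH2, 4 (40%) had a region, where the mean share in their length classes was 32.8%. RBBP4, a histone chaperone, stood at rank 118 with a signal of 63014. The accessory subunits were PHF19 at rank 375 with 40194 and JARID2 at rank 915 with 25335. EZH1, the paralog of EZH2, stood at rank 1711 with 15868. The RBBP4 region also overlapped ZBTB8OS and SYNC. The region of rank 375 overlapped TRAF1 but not PHF19, and another region of lower signal overlapped PHF19 itself. EZH1 and EZH2 stood 3 ranks apart, with signals of 15868 and 15840, but the EZH1 region was 61.6 kb long and had 0.257 per base. Among 24 further SWI/SNF subunits 14 (58.3%) had a region. DPF1 at rank 48 with a signal of 83215 and SMARCC1 at rank 236 with 49057 came first. The DPF1 region was 224 kb long and also overlapped SIPA1L3, whereas DPF1 itself measures 18.7 kb.

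The DNA methylation list had a region for 6 of 7 genes (85.7%). IDH2, a mitochondrial isocitrate dehydrogenase, came first at rank 62 with a signal of 78182, in a region that also overlapped ZNF710. The DNA methyltransferase DNMT3A followed at rank 1318 with 19632, and IDH1 had none. Of 4 further H3K36 methyltransferases 3 (75%) had one, where the mean share in their length classes was 33.0%. NSD1 stood at rank 67 with a signal of 75331, in a region that also overlapped ZNF346 and FGFR4. ASH1L stood at rank 449 with 37227 and NSD3 at rank 1935 with 14161, and NSD2 had none. Of 8 histone demethylases 3 (37.5%) had one, close to the mean share of 34.9% in their length classes. KDM2B stood at rank 248 with a signal of 48247, KDM4A at rank 1536 with 17527 and KDM4C at rank 2025 with 13723.

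The cell type of the table was checked with marker genes. A region lay within 50 kb of 10 of 13 germinal center B-cell markers (76.9%), CD79A (rank 159) and PAX5 (rank 216) first. The same held for 1 of 7 T-cell markers (CD5), 1 of 4 myeloid markers (CSF1R) and 1 of 4 plasma cell markers (IRF4). Of all protein-coding genes 30.7% had one. The CD79A region lay 23.8 kb from the gene, over ARHGEF1 and ERFL.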

How the data were processed

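CUT&RUN libraries of OCI-Ly7 clones were aligned to hg38 by the authors with nf-core cutandrun, with IgG controls, with promoter reads setting the depth scale; SEACR gave the peaks and MACS2 the summits. The authors pooled the 2 H3K27ac WT samples and ran ROSE (stitching 12.5 kb, peaks within 2500 bp of a TSS left out). The deposited ROSE signal per region is the unit used here, and its exact scaling is not given in the sources used here. The submitters' processing notes also list DiffBind 3.6.1 and DESeq2, which bear on no value here.

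Here, positions were read as 1-based, and constituents as windows of 401 bp (in 2609 of 2615 regions the summed length divides by 401 without remainder). Regions were matched to 19970 protein-coding genes of GENCODE v44 on chromosomes 1 to 22 and X. Sequences came from hg38 and RefSeq tables (10 of 10 promoters matched). Scripts ran under Python 3.11.15 (pandas 2.3.3, numpy 2.4.6, matplotlib 3.10.9). The overlap procedure was tested on simulated data for 200 genes, and 6 of 6 checks came out right.

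Members and lists were chosen with earlier results of these data known. Each region at a member is named. In the other lists the 2 genes with the highest signal are named, and lists with at most 5 genes with a region in full. Alternatives were other windows, the 1307 highest regions, canonical transcripts, the nearest TSS, signal per base and, chosen after seeing the data, joining regions over gaps of up to 25 kb. Some items at 2 of the regions are not reported here. Precision is limited by 1 pooled column without replicates.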

Additional observations from a re-analysis of the deposited data

How the results depend on the processing

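Of 24 values computed under alternative settings, 17 counts stayed within 1.5 times the reported count and 4 did not, and the other 3 were median ranks, for which any change was counted as a move. The number of genes of the 10 with a region was 8 with no extension or 10 kb. It was 9 with 100 kb, canonical transcripts or regions joined over gaps of up to 25 kb (chosen after seeing the data). It was 6 both in the 1307 highest regions by signal and with each region given to the nearest TSS. Of all protein-coding genes, 17.3% had a region with no extension, 20.8% with 10 kb and 39.7% with 100 kb. For the other alternatives that share is not given, so 6 of 10 cannot be called high or low. The regions near the 10 genes numbered 16, but 8 in the 1307 highest. By nearest TSS there were 10, of which 7 were among the 16 and 3, with ARID1B as the nearest TSS, lay beyond the 50 kb window. The 72 other chromatin genes had a region in 37 cases, but in 21 and 18 under those settings. The 6 genes kept were CREBBP, KMT2D, KMT2C, ARID1A, ARID1B and SMARCA4 in the first setting and CREBBP, EP300, KMT2D, KMT2C, EZH2 and ARID1B in the second. The median rank of the regions was 1410.5 by signal and 1003 by signal per base, 1238 with no extension and 1583 with 100 kb. Leaving out regions or narrowing the window can only lower a count. The nearest-TSS setting drops some links and adds others, and the cause of its lower counts was not tested. No paired analysis was possible because the table holds 1 pooled WT column, and for the same reason no replicate could be left out. Depth per library is unknown in the table, and H3K27ac below the cutoff cannot be seen.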
